A study of Mus musculus with 11 samples.

Results

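The levels of 10 genes of mast cells and basophils were followed in bulk RNA-seq of lineage-negative mouse bone marrow. They were Fcer1a, Ms4a2, Mcpt8, Prss34, Gzmb, Cpa3, Cma1, Mcpt4, Tpsb2 and Hdc. They were chosen by symbol for what is known of them, with earlier results of these data also known. They were matched to Ensembl identifiers and make up 10 of the 51912 genes in the count table. All 10 were protein coding on GRCm38 (mm10), all passed the filter on low counts, and none shared exon bases with another annotated gene or held a near-identical stretch of one. Marrow of young adult female mice of C57BL/6 background carrying Rosa26 ERT2-Cre was transduced with a retrovirus that expresses its oncogene at once (marked by GFP) and with another that does so only after Cre recombination (marked by a red protein). CSF3R-only cells (n = 4) expressed mutant CSF3R T618I, the receptor for granulocyte colony-stimulating factor, beside an empty inducible vector. CSF3R-first cells (n = 3) expressed CSF3R T618I and then CEBPA V314VW, a mutant of the myeloid transcription factor C/EBP alpha. CEBPA-first cells (n = 4) expressed CEBPA V314VW and then CSF3R T618I. In every group the marrow was exposed to IL-3, IL-6 and SCF during transduction, sorted as Lin- and positive for both colours, and then kept for 48 h without added cytokines in 4-hydroxytamoxifen, which activates Cre, so the control cells carried the Cre and the drug too. The groups ask how these genes differ with CEBPA V314VW and with the order of the mutations. CEBPA-first cells took CSF3R T618I from the inducible vector and the other groups from the constitutive one. Order, vector and length of exposure therefore cannot be told apart, and no group expressed CEBPA V314VW alone. Oncogene levels were set by retroviral vectors, and no source states that replicates came from separate animals, so p-values measure only the spread between these samples.

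Mast cells and basophils are the effector cells of IgE responses. IgE sits on the high-affinity receptor, built from an IgE-binding alpha chain (Fcer1a), a signal-amplifying beta chain (Ms4a2) and the gamma chain Fcer1g, which other myeloid cells also use. Antigen that crosslinks this IgE releases granules holding histamine, made by histidine decarboxylase (Hdc), and proteases. In mice Mcpt8 and Prss34 are basophil proteases (mMCP-8 and mMCP-11), Cma1 and Mcpt4 are chymases and Tpsb2 a tryptase (mMCP-6) of connective tissue mast cells, Cpa3 is the carboxypeptidase of mast cells and also of basophils and early progenitors, and Gzmb is granzyme B, best known from cytotoxic lymphocytes and also made by mast cells. GATA2 is a transcription factor of both lineages and belongs to a family named for the letters its members bind.

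The promoters of 6 of the genes are shown because the letters AGATAA, a motif of the kind these factors bind, divide them: the first 4 hold it and Mcpt8 and Hdc do not. Only this exact string was searched, and other forms of the motif were not counted. Hdc, for one, holds the near variant TGATAG, so the divide is one of this string alone. Each is RefSeq sequence of GRCm38.p6 from 250 bases before to 50 bases after the start RefSeq gives, on the gene's own strand, with AGATAA or its reverse complement TTATCT in capitals. They lie at chr1:173227180-173227479 (Fcer1a, minus strand), chr19:11623670-11623969 (Ms4a2, minus), chr3:20242132-20242431 (Cpa3, minus), chr17:25298144-25298443 (Prss34, plus), chr14:56085148-56085447 (Mcpt8, minus) and chr2:126618629-126618928 (Hdc, minus).
Fcer1a: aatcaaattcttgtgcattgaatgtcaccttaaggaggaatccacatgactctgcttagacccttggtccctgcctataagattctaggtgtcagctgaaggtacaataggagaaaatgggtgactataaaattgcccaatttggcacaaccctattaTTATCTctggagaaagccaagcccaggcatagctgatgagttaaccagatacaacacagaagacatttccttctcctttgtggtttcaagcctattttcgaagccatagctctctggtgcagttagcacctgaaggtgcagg
Ms4a2: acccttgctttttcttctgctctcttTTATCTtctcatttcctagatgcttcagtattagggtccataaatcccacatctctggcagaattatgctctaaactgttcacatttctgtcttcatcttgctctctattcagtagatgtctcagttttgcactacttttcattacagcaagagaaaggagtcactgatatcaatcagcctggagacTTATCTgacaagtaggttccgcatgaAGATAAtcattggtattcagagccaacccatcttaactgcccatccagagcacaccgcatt
Cpa3: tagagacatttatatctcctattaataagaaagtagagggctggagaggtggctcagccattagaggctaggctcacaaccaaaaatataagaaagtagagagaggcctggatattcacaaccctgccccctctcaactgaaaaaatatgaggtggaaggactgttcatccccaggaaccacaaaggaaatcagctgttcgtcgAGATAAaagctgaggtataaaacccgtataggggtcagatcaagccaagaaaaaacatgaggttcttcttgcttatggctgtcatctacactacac
Prss34: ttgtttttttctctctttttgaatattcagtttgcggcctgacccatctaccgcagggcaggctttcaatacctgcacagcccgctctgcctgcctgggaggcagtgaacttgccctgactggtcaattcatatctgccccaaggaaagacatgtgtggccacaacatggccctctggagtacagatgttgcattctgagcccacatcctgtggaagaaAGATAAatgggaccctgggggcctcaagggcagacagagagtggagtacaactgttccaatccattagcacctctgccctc
Mcpt8: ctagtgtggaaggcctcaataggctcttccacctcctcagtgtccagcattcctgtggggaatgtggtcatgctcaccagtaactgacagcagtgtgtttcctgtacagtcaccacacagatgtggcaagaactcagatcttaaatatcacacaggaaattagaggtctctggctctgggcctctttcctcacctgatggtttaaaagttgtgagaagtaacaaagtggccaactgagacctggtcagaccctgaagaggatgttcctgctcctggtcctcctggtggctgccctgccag
Hdc: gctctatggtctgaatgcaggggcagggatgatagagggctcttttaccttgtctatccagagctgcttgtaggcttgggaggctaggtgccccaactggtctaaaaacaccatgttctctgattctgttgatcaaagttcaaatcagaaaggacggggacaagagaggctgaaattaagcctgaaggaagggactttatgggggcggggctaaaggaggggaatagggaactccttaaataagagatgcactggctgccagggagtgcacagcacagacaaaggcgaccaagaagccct

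RefSeq held promoters for 9 of the 10 genes, all but Tpsb2. AGATAA was found on either strand in 4 of the 9 (44.4%), against 11.2% of 32851 promoters of the same length. With the start base counted as 0, the match began at -92 in Fcer1a, at -224, -37 and -11 in Ms4a2, at -46 in Cpa3 and at -31 in Prss34, and Mcpt8, Hdc, Gzmb, Cma1 and Mcpt4 held none. The E-box letters CANNTG occurred in 7 of the 9 promoters, against 72.3% of all. The C/EBP-type letters TTGCNNAA, searched on both strands, occurred in 1 of the 9, at -118 in Fcer1a, against 10.8% of all promoters. Gene positions given further on are those of GENCODE, and for Hdc the GENCODE start lies upstream of the RefSeq window shown. A match of letters is not a bound site.

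The 11 libraries held 47905747 to 72268346 counts, of which the 10 genes took 0.205 to 0.336% in the CSF3R-only libraries, 0.134 to 0.181% in the CSF3R-first libraries and 0.162 to 0.221% in the CEBPA-first libraries. Levels below are TMM-normalized CPM, in which counts are divided by a library size adjusted with a TMM factor for differences in RNA composition. Differences are log2 fold changes with their standard errors (SE) from edgeR's quasi-likelihood test over 15703 genes. A gene is called when its Benjamini-Hochberg adjusted p is under 0.05 and its log2 fold change is at least 1 in size. Fewer cells of a type and less RNA per cell cannot be told apart in such bulk samples.

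Against CSF3R-only, CEBPA-first cells had less Mcpt8, Hdc, Cma1 and Tpsb2 and more Fcer1a, so 5 of 9 genes were called, 1 higher and 4 lower. Mcpt4 is left out of the counts for CEBPA-first, since all of its CEBPA-first samples were under the filter level and it entered the test only through the other groups. Of all genes tested, 27.0% were called in this comparison, 8.07% higher and 19.0% lower. Between the orders, CEBPA-first cells had more Fcer1a and less Cma1 than CSF3R-first cells, 2 of 9 genes against 12.8% of all genes (2.57% higher and 10.3% lower). Against CSF3R-only, CSF3R-first cells had less Mcpt8, Tpsb2 and Mcpt4, 3 of 10 against 6.65% of all genes (2.13% higher and 4.53% lower). By adjusted p alone 6 of 9, 7 of 9 and 9 of 10 genes passed in these 3 comparisons, against 72.0%, 48.3% and 42.7% of all genes. All 9 of the last were lower, as were 21.1% of all genes. Some of these passes below the fold threshold (Cma1, Gzmb and Prss34 in the last comparison, Prss34, Gzmb and Ms4a2 between the orders) were lost under other settings or without 1 sample, with adjusted p up to 0.136. The median log2 fold change of the 9 genes without Mcpt4 was -0.67 for CEBPA-first against CSF3R-only, 0.0040 between the orders and -0.82 for CSF3R-first against CSF3R-only, beside medians over all genes of -0.0045, 0.00052 and -0.022. The comparisons share samples, so they are not independent of each other.

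**Figure D1:**
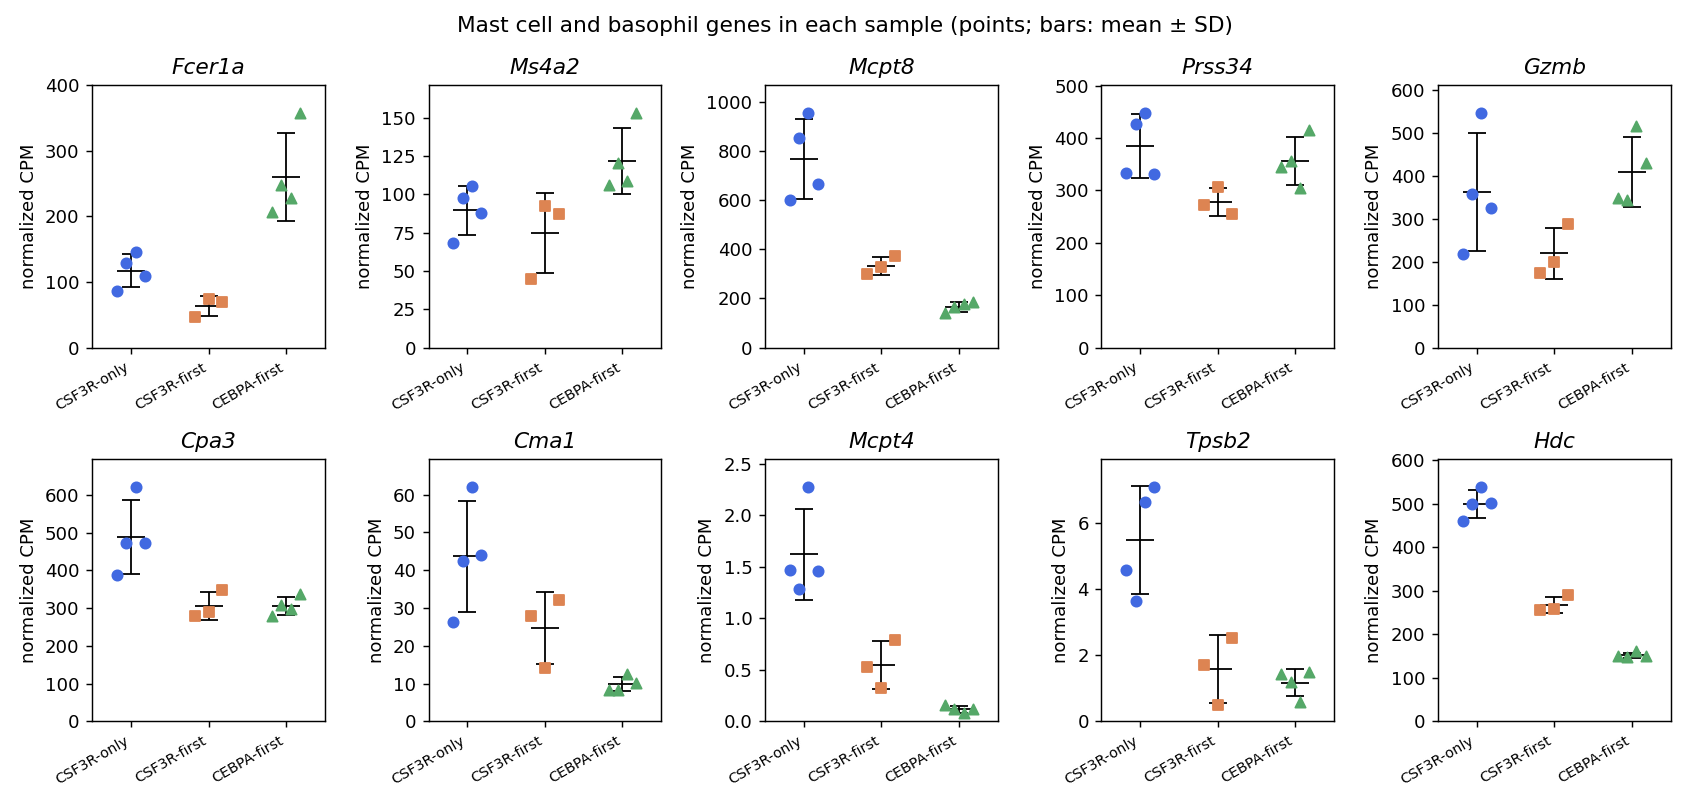
TMM-normalized CPM (linear axis from 0) of the 10 genes in each sample, by group; points are samples and bars the mean and SD (n = 4, 3 and 4). Fcer1a is highest in the 4 CEBPA-first samples (207 to 357), while Mcpt8, Hdc and Mcpt4 are highest in CSF3R-only and lowest in CEBPA-first, with no overlap.

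**Figure D2:**
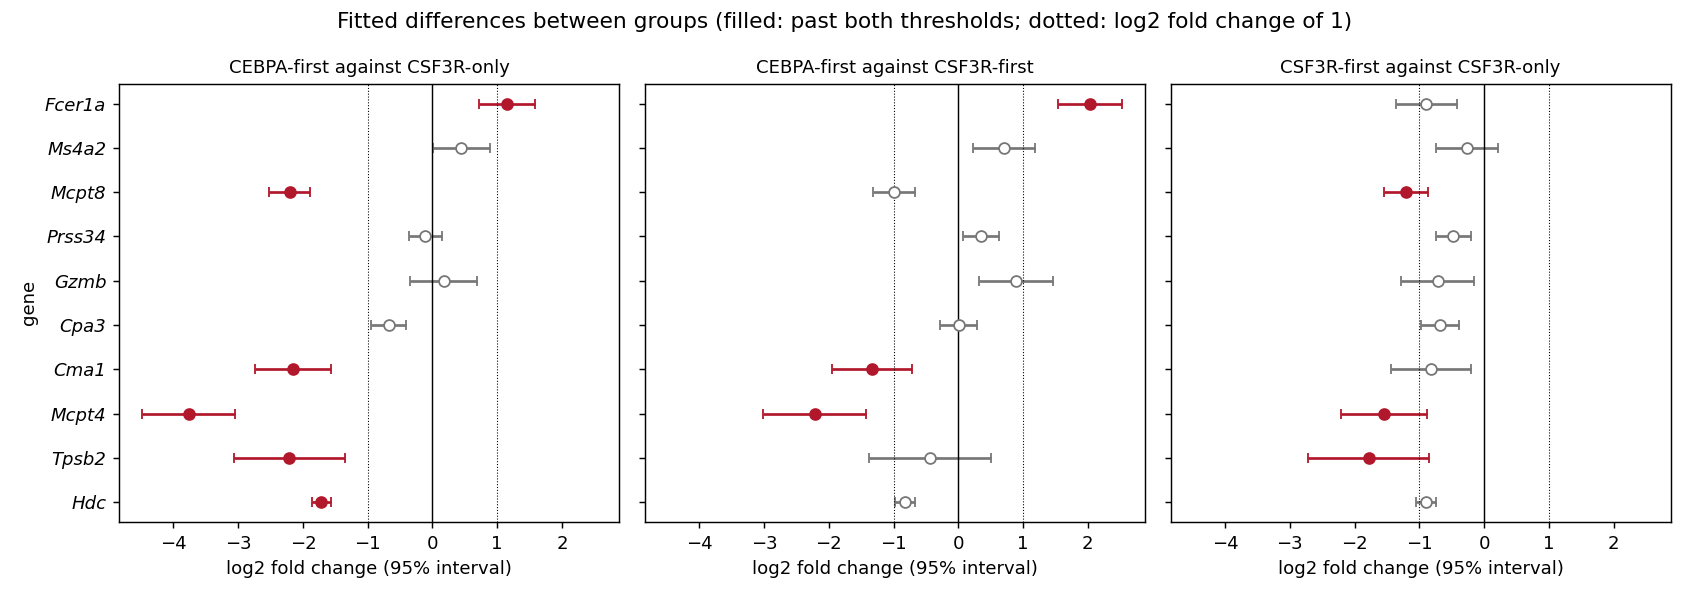
Log2 fold changes (horizontal axis, with 95% intervals) of the 10 genes in the 3 comparisons; filled points passed both thresholds and dotted lines mark a log2 fold change of 1 in size. In CSF3R-first against CSF3R-only all 10 points lie left of 0, and in CEBPA-first against CSF3R-only Fcer1a lies at 1.15 and Mcpt8 at -2.20; the Mcpt4 points of the 2 CEBPA-first panels rest on 4 to 9 counts per CEBPA-first library and are left out of the counts.

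Fcer1a encodes the chain that binds IgE and lies on chromosome 1 (173221284 to 173227214). It read 86.2, 128, 145 and 110 CPM in the CSF3R-only samples A to D, 46.3, 73.6 and 70.1 CPM in CSF3R-first A to C, and 207, 248, 228 and 357 CPM in CEBPA-first A to D. All 3 groups stood apart, with CSF3R-first lowest and CEBPA-first highest, and CEBPA-first replicate D was the highest sample. Fcer1a was higher in CEBPA-first than in CSF3R-only by 1.15 (SE 0.20, adjusted p = 0.000167), a 2.21-fold difference. Without CEBPA-first replicate D the difference was 0.96 and no longer reached the fold threshold (adjusted p = 0.000374). Between the orders the difference was 2.04 (SE 0.23, adjusted p = 2.11e-05), or 4.11-fold. CSF3R-first was below CSF3R-only by a log2 fold change of -0.89 (SE 0.22, adjusted p = 0.00603), which passed the test but not the fold threshold. Fcer1a was thus below the CSF3R-only level in one order of mutations and above it in the other.

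Ms4a2, the beta chain on chromosome 19 (11615523 to 11623719), read 68.1, 97.5, 105 and 87.5 CPM in CSF3R-only, 44.7, 92.3 and 86.9 CPM in CSF3R-first, and 106, 120, 108 and 153 CPM in CEBPA-first. The CEBPA-first samples were the highest 4 of the 11, by under 1 CPM over the nearest CSF3R-only sample, and the other groups overlapped. Ms4a2 differed between CEBPA-first and CSF3R-only by 0.44 (SE 0.20, adjusted p = 0.0646), with a 95% interval of 0.0054 to 0.88, and was not called. Between the orders it was higher in CEBPA-first by 0.71 (SE 0.22, adjusted p = 0.0192), below the fold threshold.

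The gamma chain Fcer1g, no member of the 10, is shared with other Fc receptors. Its mean level was 755 ± 69.0 CPM (SD, n = 4) for CSF3R-only cells, 537 ± 145 CPM (n = 3) for CSF3R-first cells and 265 ± 27.1 CPM (n = 4) for CEBPA-first cells. CEBPA-first cells had less of it than CSF3R-only cells, by a log2 fold change of -1.51 (SE 0.14, adjusted p = 6.51e-07) and less than CSF3R-first cells, by -1.02 (SE 0.14, adjusted p = 0.000149). Transcripts of Fcer1a and Fcer1g thus differed in opposite directions between CEBPA-first and each other group. In bulk samples the Fcer1g counts cannot be assigned to the IgE receptor or to cells that express Fcer1a. In counts within a library, which no normalization factor touches, Fcer1a stood to Fcer1g at 0.105 to 0.216 for CSF3R-only, at 0.0660 to 0.171 for CSF3R-first and at 0.707 to 1.42 for CEBPA-first. Ms4a2 stood to Fcer1a at 0.725 to 0.798, 0.966 to 1.25 and 0.428 to 0.513, so the 3 groups did not overlap in that ratio. The ratios given here were chosen after the levels had been seen and carry no test.

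Mcpt8, the defining basophil protease, lies on chromosome 14 (56082166 to 56085273) and was the most abundant of the 10 genes in CSF3R-only. It read 601, 852, 955 and 668 CPM in CSF3R-only, 299, 327 and 373 CPM in CSF3R-first, and 139, 165, 180 and 184 CPM in CEBPA-first. No group overlapped another, and CSF3R-first lay between the other two. Mcpt8 differed in CEBPA-first cells from the CSF3R-only level by a log2 fold change of -2.20 (SE 0.14, adjusted p = 4.07e-08), a 4.61-fold difference, and was lower in CSF3R-first than in CSF3R-only by -1.21 (SE 0.15, adjusted p = 0.000121). Between the orders it was lower in CEBPA-first by -0.997 (SE 0.15, adjusted p = 0.000216), which fell just short of the fold threshold.

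Prss34, the other basophil protease, lies in the tryptase cluster of chromosome 17 (25298394 to 25300165). It read 333, 427, 448 and 332 CPM in CSF3R-only, 272, 306 and 255 CPM in CSF3R-first, and 345, 357, 305 and 415 CPM in CEBPA-first. CEBPA-first lay within the range of CSF3R-only apart from 1 sample below it, and CSF3R-first lay below CSF3R-only. The CEBPA-first difference from CSF3R-only was -0.11 (SE 0.12, adjusted p = 0.396; 95% interval -0.37 to 0.14), an interval that leaves out a change by the fold threshold in either direction. CSF3R-first was lower than CSF3R-only by -0.47 (SE 0.13, adjusted p = 0.0105), and CEBPA-first was higher than CSF3R-first by 0.36 (SE 0.13, adjusted p = 0.0349). Both basophil proteases were thus abundant, and their ratio differed by group: Prss34 counts stood to Mcpt8 counts at 0.469 to 0.554 for CSF3R-only, at 0.683 to 0.937 for CSF3R-first and at 1.70 to 2.48 for CEBPA-first. Fcer1a stood to Mcpt8 at 0.143 to 0.164, 0.155 to 0.225 and 1.27 to 1.94.

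**Figure D3:**
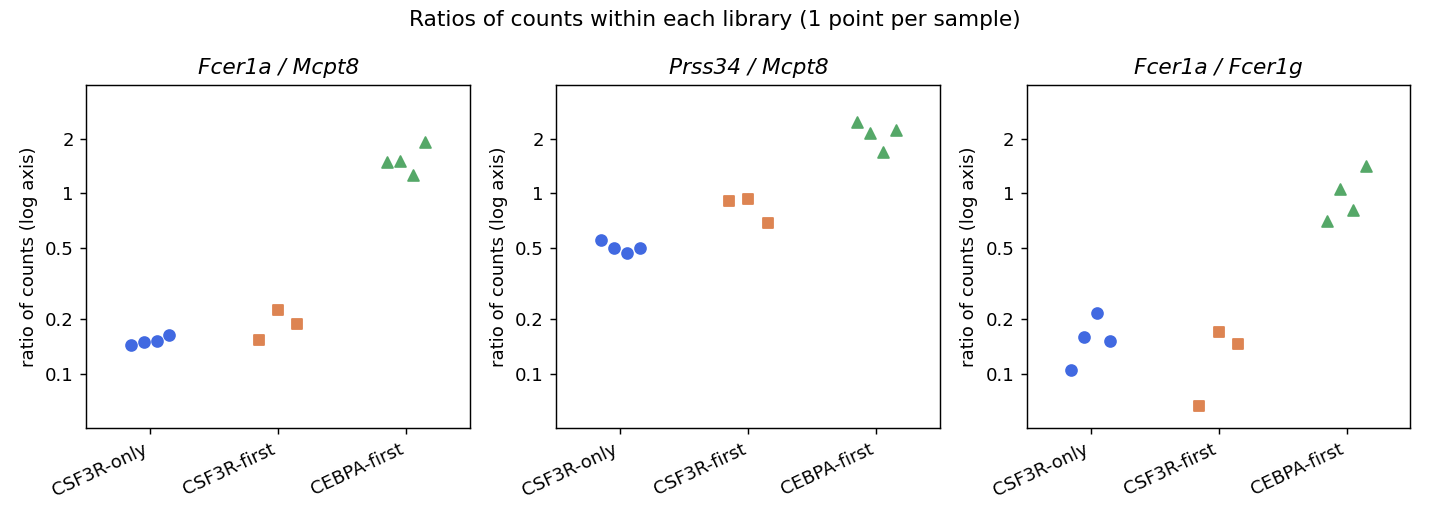
Ratios of raw counts within each library (log axis), 1 point per sample, by group. The CEBPA-first samples lie above both other groups in all 3 ratios, with Fcer1a to Mcpt8 at 1.27 to 1.94.

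Gzmb, granzyme B, lies on chromosome 14 (56258838 to 56262260) and varied widely within groups, with coefficients of variation of 19.9 to 37.8%. It read 218, 359, 547 and 327 CPM in CSF3R-only, 175, 199 and 288 CPM in CSF3R-first, and 348, 344, 516 and 431 CPM in CEBPA-first. CSF3R-only overlapped both other groups, while CEBPA-first lay above CSF3R-first in every sample. The CEBPA-first difference from CSF3R-only was 0.18 (SE 0.24, adjusted p = 0.525; 95% interval -0.34 to 0.69). Between the orders Gzmb was higher in CEBPA-first by 0.89 (SE 0.26, adjusted p = 0.0142), and CSF3R-first was lower than CSF3R-only by -0.72 (SE 0.26, adjusted p = 0.0426), both below the fold threshold. Without CSF3R-first replicate C, its highest sample, the difference between the orders was 1.13 and passed it, while without CSF3R-first replicate A it was 0.76 and no longer passed the test (adjusted p = 0.0526). Of the markers of natural killer and T cells, Ncr1, Cd3e and Cd8a had no count in any library, Gzma had 0 to 6 counts and Prf1 3 to 13 counts. Klrb1c held 0 to 9 counts per CSF3R-only library, 6 to 12 per CSF3R-first library and 35 to 44 per CEBPA-first library, and passed the filter through CEBPA-first, so its difference is a description. Klrk1 held 4 to 5 counts in CSF3R-first and 5 to 24 in the other groups. Nkg7, the most abundant of the list, averaged 109 ± 24.7 CPM in CSF3R-only cells, 57.6 ± 14.7 in CSF3R-first cells and 48.8 ± 6.99 in CEBPA-first cells.

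Cpa3, the carboxypeptidase on chromosome 3 (20215620 to 20242181), read 387, 473, 621 and 472 CPM in CSF3R-only, 279, 289 and 348 CPM in CSF3R-first, and 280, 309, 299 and 337 CPM in CEBPA-first. Every CSF3R-only sample was above every sample of the other groups, which overlapped. Cpa3 was lower than in CSF3R-only by -0.67 in CEBPA-first (SE 0.12, adjusted p = 0.000289) and by -0.68 in CSF3R-first (SE 0.14, adjusted p = 0.00195), neither past the fold threshold. The difference between the orders was 0.0040 (SE 0.13, adjusted p = 0.985), with a 95% interval of -0.29 to 0.29.

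The chymase Cma1 (chromosome 14, 55941451 to 55944675) read 26.3, 42.4, 62.0 and 44.0 CPM in CSF3R-only, 27.9, 14.1 and 32.1 CPM in CSF3R-first, and 8.40, 8.35, 12.4 and 10.1 CPM in CEBPA-first. All CEBPA-first samples were below all others, and the other groups overlapped. CEBPA-first cells had less Cma1 than CSF3R-only cells, by -2.15 (SE 0.27, adjusted p = 1.14e-05) and less than CSF3R-first cells, by -1.33 (SE 0.29, adjusted p = 0.00242). Between CSF3R-first and CSF3R-only the log2 fold change was -0.82 (SE 0.29, adjusted p = 0.0347).

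Mcpt4, the other chymase (chromosome 14, 56059629 to 56062313), was rare. It read 1.47, 1.28, 2.28 and 1.46 CPM in CSF3R-only, 0.53, 0.32 and 0.79 CPM in CSF3R-first, and 0.15, 0.12, 0.077 and 0.11 CPM in CEBPA-first. The groups did not overlap, but the CEBPA-first values rest on 4 to 9 counts per library, all under the filter level of 0.187 CPM, so the gene passed the filter only through the other groups. Its fitted log2 fold changes of -3.77 against CSF3R-only and -2.22 against CSF3R-first are therefore given as a description, with no test. In CSF3R-first against CSF3R-only, where every sample was over the filter level, it was called lower at -1.55 (SE 0.31, adjusted p = 0.00192).

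The tryptase Tpsb2 (chromosome 17, 25366305 to 25369098) read 4.58, 3.64, 6.63 and 7.09 CPM in CSF3R-only, 1.70, 0.50 and 2.53 CPM in CSF3R-first, and 1.44, 1.19, 0.58 and 1.48 CPM in CEBPA-first. CSF3R-only stood above both other groups, which overlapped. Tpsb2 was lower than in CSF3R-only by -2.21 in CEBPA-first (SE 0.40, adjusted p = 0.000224) and by -1.78 in CSF3R-first (SE 0.43, adjusted p = 0.00567). Between the orders it differed by -0.43 (SE 0.44, adjusted p = 0.442), with a wide 95% interval of -1.38 to 0.51.

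Hdc, which makes histamine (chromosome 2, 126593667 to 126619299), had the smallest coefficient of variation of the 10 genes in every group, at 3.91 to 7.11%. It read 460, 499, 539 and 501 CPM in CSF3R-only, 256, 257 and 290 CPM in CSF3R-first, and 150, 148, 161 and 150 CPM in CEBPA-first. The groups lay far apart compared with the spread within them. CEBPA-first cells had less Hdc than CSF3R-only cells, by -1.72 (SE 0.068, adjusted p = 7.25e-10), a 3.29-fold difference. The steps from CSF3R-only to CSF3R-first and from CSF3R-first to CEBPA-first were near in size, at -0.90 (SE 0.073, adjusted p = 3.42e-06) and -0.82 (SE 0.071, adjusted p = 2.99e-06).

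Samples of the compared groups did not overlap for 7 of the 9 genes without Mcpt4 in CEBPA-first against CSF3R-only, as for 68.7% of all genes, for 6 of 9 between the orders, as for 52.2%, and for 7 of 10 in CSF3R-first against CSF3R-only, as for 42.1%.

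Per kilobase of exon, which lets levels of different genes be compared, Mcpt8 led in CSF3R-only at 771 ± 163 CPM per kb (SD, n = 4), followed by Cpa3 (322 ± 64.1), Prss34 (315, with a coefficient of variation of 15.9%) and Gzmb (253 ± 95.4), which lay within each other's spread. Fcer1a (118 ± 25.5), Hdc (78.2 ± 5.05), Cma1 (40.1 ± 13.4) and Ms4a2 (31.9 ± 5.72) came next, the last pair within their spread. Tpsb2 (3.44 ± 1.03) and Mcpt4 (1.46 ± 0.40) were far below. In CEBPA-first the leading genes were Prss34 (291 ± 37.5), Gzmb (285 ± 56.7) and Fcer1a (260 ± 67.1 CPM per kb, SD, n = 4), which could not be separated, and Mcpt8 (167 ± 20.3) stood below Cpa3 (202 ± 15.7). In CSF3R-first Mcpt8 still led at 334 ± 37.1 CPM per kb (n = 3), and Fcer1a was at 63.4 ± 14.9. The basophil proteases and Fcer1a thus exceeded the mast cell tryptase and chymases in all 3 groups. Of the 6 further genes of the marker list, the connective tissue mast cell receptors Mrgprb1 and Mrgprb2 had 0 and 0 to 2 counts per library. The other 4 were present: Kit, Gata2, Cd200r3 and Il1rl1, the IL-33 receptor, which averaged 144 ± 25.3, 102 ± 26.3 and 99.3 ± 11.5 CPM in the 3 groups. Of these 4, Cd200r3 was called, lower, in CEBPA-first against CSF3R-only, where 27.0% of all genes were called, and Il1rl1 differed by -0.54 (SE 0.16, adjusted p = 0.0080), below the fold threshold. Cd200r3 averaged 36.7 ± 6.15, 17.1 ± 0.90 and 10.3 ± 0.86 CPM in the 3 groups. In CSF3R-first against CSF3R-only 1 of the 4 was called, lower, beside 6.65% of all genes. The tryptase Tpsab1, of the tryptase cluster, had 0 to 2 counts per library.

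Of the 10 genes, 4 sit in the chymase and granzyme cluster of chromosome 14, in the order Cma1, Mcpt4, Mcpt8 and Gzmb, with start sites 317.6 kb apart from end to end. Of the 11 other genes of the cluster, 4 had enough counts to test. In CEBPA-first against CSF3R-only the mucosal mast cell proteases Mcpt1 and Mcpt2 were lower by -2.77 (SE 0.30, adjusted p = 2.39e-06) and -3.54 (SE 0.22, adjusted p = 2.81e-08). Gzmc, granzyme C, held 35 to 130 counts per CSF3R-only library and 1 to 3 per CEBPA-first library, and passed the filter only through the other groups, so its difference is a description. Ctsg, cathepsin G of neutrophil primary granules, starts 17.3 kb from Mcpt8 and was higher, at 339 ± 37.5 CPM for CSF3R-only, 618 ± 64.7 for CSF3R-first and 896 ± 30.1 for CEBPA-first (log2 fold change 1.40, SE 0.09, adjusted p = 3.08e-08). Neighbouring genes of one cluster therefore differed in opposite directions, with Mcpt8 and Ctsg side by side. In the tryptase cluster, Tpsg1 next to Tpsb2 was lower by -2.09 (SE 0.30, adjusted p = 3.66e-05), the 1 called of 3 further genes with more than 1 sample over the filter level in both groups, a share near the 27.0% of all genes called.

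**Figure D4:**
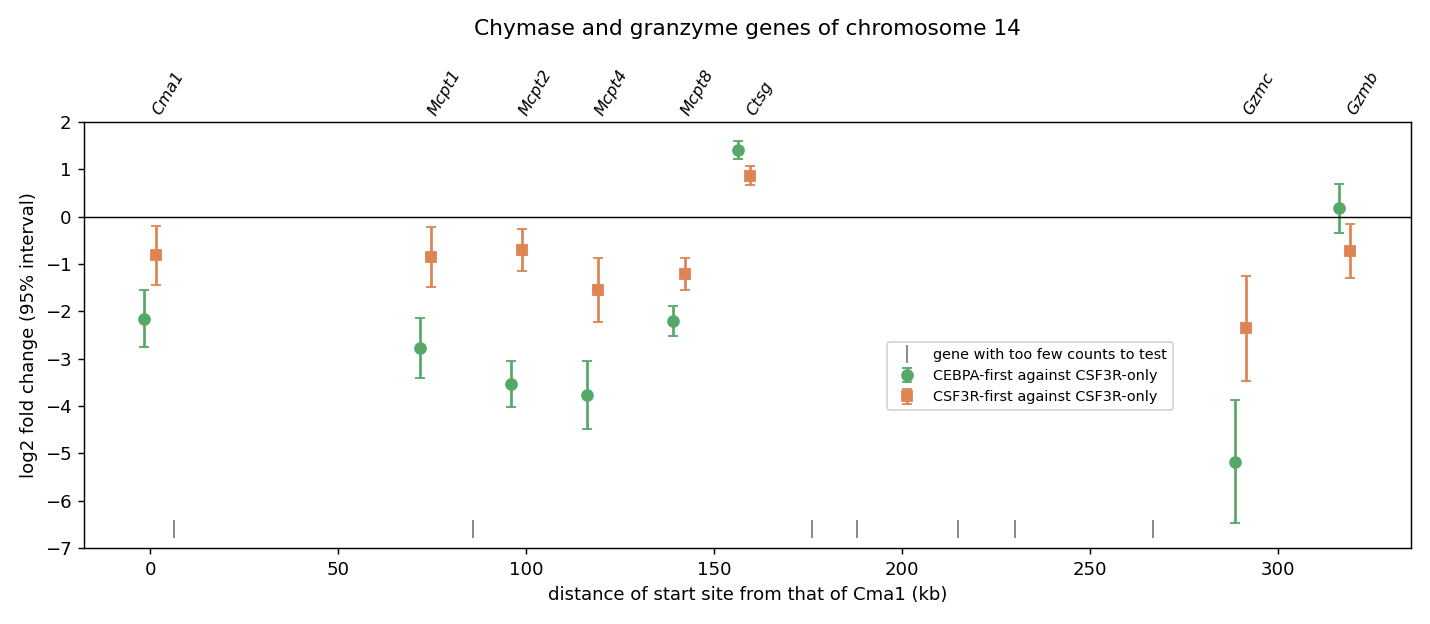
Log2 fold changes with 95% intervals (vertical axis) against the distance of each start site from that of Cma1 (kb) for the tested genes of the chymase and granzyme cluster; ticks at the foot mark untested genes and their height has no meaning. Ctsg lies above 0 in both comparisons, Gzmb near 0 (0.18) in CEBPA-first against CSF3R-only, and the other 6 genes lie below 0. In CEBPA-first against CSF3R-only the Gzmc point rests on 1 to 3 counts per CEBPA-first library and the Mcpt4 point on 4 to 9.

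Genes that work with the 10 were taken from lists, with the 10 left out of each. In CEBPA-first against CSF3R-only, 8 of 20 IgE receptor signalling genes were called lower and 0 higher, beside 19.0% of all genes lower and 8.07% higher, with a median log2 fold change of -0.69. They included protein kinase C beta (Prkcb, -2.71, adjusted p = 8.59e-09), the adaptors Lat2 (-2.17, adjusted p = 1.13e-10) and Lat (-2.05, adjusted p = 2.46e-06), and Fcer1g. The kinases Lyn (-1.16) and Syk (-1.03) were among them too. In CSF3R-first against CSF3R-only 1 of the 20 was called, beside 6.65% of all genes: Lat at -1.10 (SE 0.23, adjusted p = 0.00262). By adjusted p alone 17 of the 20 were lower there and 1 higher, against 21.1% of all genes lower, with a median of -0.32.

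Of 16 further granule and mediator genes, 7 were called lower and 0 higher in CEBPA-first, again beside 19.0% and 8.07% of all genes, with a median of -0.96. The largest were Rab27b, a small GTPase of granule release (-2.67, adjusted p = 5.31e-08), Alox5ap (-2.06, adjusted p = 3.45e-08) and Alox5 (-2.03, adjusted p = 1.27e-09) of leukotriene synthesis, and Hpgds, the prostaglandin D synthase (-1.87, adjusted p = 6.23e-07). Slc18a2, the vesicular monoamine transporter that loads histamine, went the other way, at 0.82 (SE 0.15, adjusted p = 0.000217) against CSF3R-only and called higher between the orders at 1.03 (SE 0.16, adjusted p = 0.000288), where 6 of the 16 genes were called lower, beside 10.3% of all genes lower and 2.57% higher. Of 11 surface markers tested, 6 were lower, led by Cd9 (-3.09, adjusted p = 1.25e-10) and the basophil receptor Cd200r3 (-1.83, adjusted p = 1.80e-08), and 1, Cd69, was higher (1.20, adjusted p = 2.44e-07). Of 8 cytokines tested, 6 were lower, led by Tnf (-3.14), Ccl4 (-2.63) and Csf1 (-2.44), and Il6 was higher (1.29, SE 0.26, adjusted p = 0.000572). In CSF3R-first against CSF3R-only these 3 lists had 1 of 16, 2 of 11 and 1 of 8 genes called lower and 0 higher, beside 4.53% and 2.13% of all genes. By adjusted p alone 10, 7 and 6 of them were lower, against the same 21.1%, and 0, 1 and 0 higher.

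Of 14 transcription factors of the lineages, 2 were called lower in CEBPA-first and 0 higher. By adjusted p alone 7 were lower and 4 higher (27.0% and 72.0% of all genes passed these 2 rules). Among the latter 2 counts were Spi1 (-0.96, adjusted p = 1.34e-06) and Cebpa (0.93, adjusted p = 1.23e-07). Whether reads of the CEBPA V314VW transgene were counted for the mouse Cebpa gene was not tested. The 2 called were Mitf, a mast cell factor (-1.90, adjusted p = 2.90e-07), and Cebpb (-1.69, adjusted p = 6.90e-07). Mitf averaged 22.7 ± 2.86, 11.4 ± 2.74 and 6.12 ± 1.08 CPM in the 3 groups. In CSF3R-first against CSF3R-only 1 of the 14 was called lower and 0 higher, beside 4.53% and 2.13% of all genes. By adjusted p alone 6 were lower there and 1 higher, against 21.1% of all genes lower. Gata2 averaged 216 ± 38.9 CPM for CSF3R-only, 142 ± 30.8 for CSF3R-first and 169 ± 25.3 for CEBPA-first and was not called in CEBPA-first against CSF3R-only (-0.35, SE 0.15, adjusted p = 0.0532). In CSF3R-first it was lower than in CSF3R-only by adjusted p alone, with samples at 108 to 167 CPM against 172 to 266 CPM. Of the 11 cytokine receptors with more than 1 sample over the filter level in both groups, Crlf2 (-1.30) and Il18r1 (-1.01) were called lower in CEBPA-first. This count of 2 of 11 is near the 19.0% of all genes called lower, and 0 were called higher. Il9r, the IL-9 receptor, held 1 to 8 counts per CSF3R-only library and 25 to 63 per CEBPA-first library, and passed the filter only through CEBPA-first, so its difference is a description. Kit, the SCF receptor, averaged 27.6 ± 3.33, 28.7 ± 4.69 and 34.8 ± 4.81 CPM and was not called in any comparison, though the CEBPA-first difference from CSF3R-only, 0.33 on the log2 scale, passed by adjusted p alone (0.0254).

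**Figure D5:**
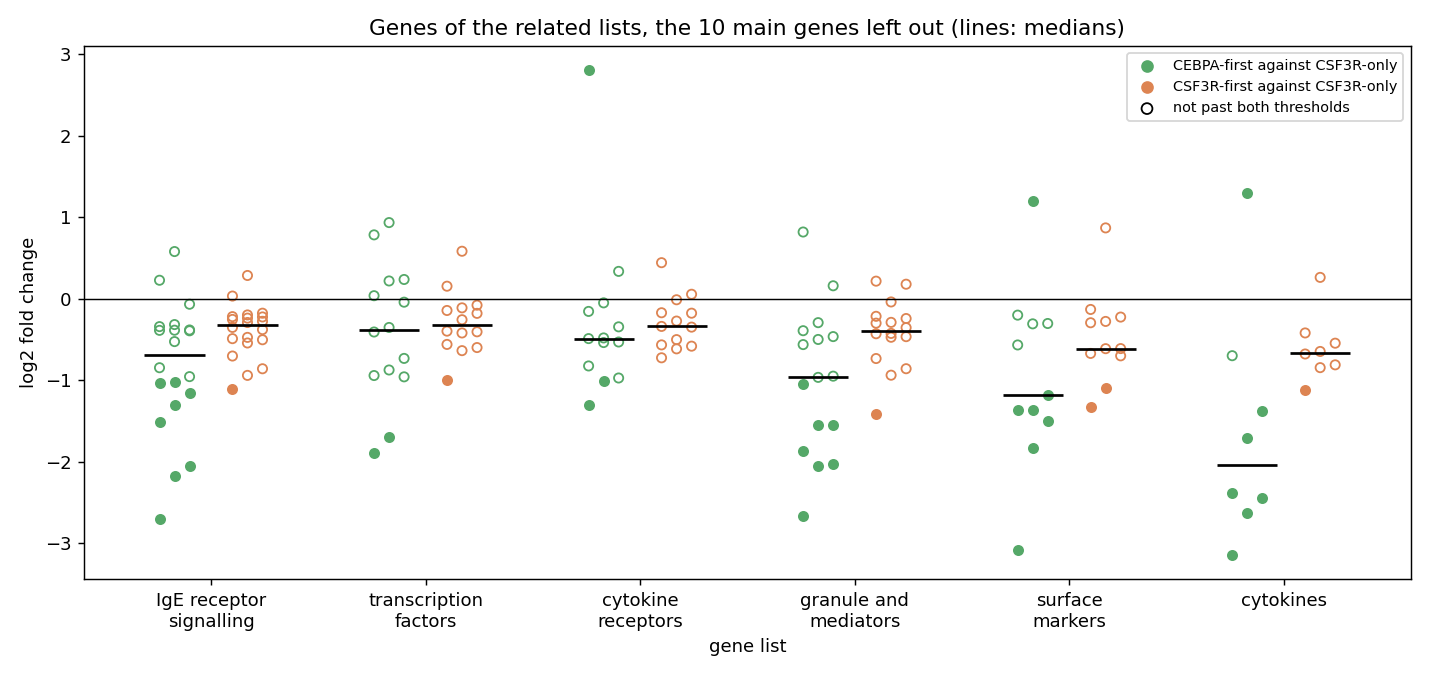
Log2 fold changes (vertical axis) of the genes of 6 related lists in CEBPA-first and in CSF3R-first, both against CSF3R-only; filled points were called and black lines are medians. The cytokine list has the lowest median (-2.05 in CEBPA-first), and Cd69 and Il6 are called above 0; the filled Il9r point at 2.80 passed the count filter only through CEBPA-first.

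Markers of other cell types moved with the groups as well, and their part in the results was not tested. Calls here are for CEBPA-first against CSF3R-only, in which 19.0% of all genes were called lower and 8.07% higher. The summed level of 9 eosinophil genes was 250 to 379 CPM for CSF3R-only, 62.0 to 142 for CSF3R-first and 31.6 to 39.6 for CEBPA-first, with 4 called lower in CEBPA-first among the 6 genes that had more than 1 sample over the filter level in both groups, and 0 at zero in a whole group. That of 14 natural killer and T cell genes was 77.2 to 135, 44.6 to 73.9 and 44.2 to 59.9 CPM, mostly Nkg7, which was called lower; of the other 4 tested genes Klrk1 was not called, and Klrb1c, Cd3d and Prf1 had too few counts in a compared group to be counted. The 10 megakaryocyte and erythroid genes summed to 922 to 1289, 377 to 687 and 142 to 196 CPM, with 9 called lower. The 12 neutrophil genes summed to 28543 to 34326, 19241 to 29769.8 and 12671 to 14621 CPM, with 7 called lower and 3 higher. The 8 dendritic cell genes had higher sums in CEBPA-first, at 77.5 to 84.9, 93.4 to 100.2 and 122 to 124 CPM. These sums were mostly Tcf4 and Bst2, which averaged 73.4 and 41.0 CPM in CEBPA-first, while Siglech, Cd209d and Clec9a held at most 12 counts in any library. Flt3 (2.82-fold) and Tcf4 (2.11-fold) were called higher and Itgax and Zbtb46 called lower in CEBPA-first against CSF3R-only. B cell markers summed to under 7 CPM in every library.

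The genes whose log2 CPM followed each gene most closely over the 11 samples are given as a description. The samples fall into 3 groups, so a large r needs only similar group means. For Mcpt8 they were Cd200r3 (r = 0.993), Slc41a3 and Cd55, and for Hdc Cd55 (0.998), Lifr and Unc13d. For Fcer1a they were Angpt1 (0.969), Rnf125 and Il10, and for Ms4a2 Bcl2 (0.981), Ppif and Tespa1. For Cpa3 they were Abhd16a (0.959), Nkg7 and Ikzf3, for Prss34 Zbtb33 (0.889), Btk and Dapp1, and for Gzmb Slc22a3 (0.956), Mfsd2a and Nrip3. For Cma1 they were Ppp2r3d (0.973), Pkp3 and Lmna, for Mcpt4 Ctse (0.990), Map2k3 and Adora3, and for Tpsb2 Arid4b (0.941), Stk38l and Jazf1. Spearman's rho named partly other genes, with Angpt1 again nearest to Fcer1a (0.982).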

How the data were processed

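Reads had been trimmed (Trimmomatic) and aligned (STAR) by the authors, who deposited raw whole-number counts per gene for 11 samples. The submitters' processing notes also name mm10 and DESeq2. The counting tool, annotation and strand setting are not given in the sources used here. Of 51912 genes, 23409 had no count. From these counts, TMM-normalized CPM and log2 CPM (prior count 2) were computed with edgeR 4.0.16 in R 4.3.3. After filterByExpr (minimum count 10, or 0.187 CPM at the median library), 15703 genes entered 1 quasi-likelihood fit (edgeR) of 3 groups with no covariate and Benjamini-Hochberg adjustment. Each SE is the size of the log2 value over the root of its F statistic. Groups came from sample titles. Gene positions and exon lengths came from GENCODE M21, promoters from RefSeq. Near-identical stretches (at least 100 bp alike at 97%) were sought by BLAST 2.17.0. The script was tested on simulated data.

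The genes and lists were chosen with earlier results of these data known. Genes named are the 10, in each list at most the 4 called genes with the largest change in CEBPA-first against CSF3R-only and markers needed to check a label, and the 3 tested genes nearest to each of the 10 by Pearson's r (average log2 CPM of at least 1). Lyn, Syk, Kit, Gata2, Spi1, Cebpa, Slc18a2, Klrb1c, Klrk1, Flt3, Tcf4, Bst2, Siglech, Cd209d, Clec9a, Itgax, Zbtb46, Cd69, Il6, Il1rl1, Cd3d and Nkg7 were named beyond that rule, after their values were seen. Alternatives were DESeq2 1.42.0, other size factors and filters, only the compared groups, a replicate block, adjusted p alone and each sample left out in turn.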

Additional observations from a re-analysis of the deposited data

How the results depend on the processing

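Of 457 alternative values for single genes, 434 kept their direction and their call under both thresholds combined, 12 newly passed both thresholds, 1 no longer did and 10 changed sign. Counts here include Mcpt4. By adjusted p alone, 8 genes were called in CEBPA-first against CSF3R-first and 9 in CSF3R-first against CSF3R-only. Leaving out 1 sample at a time gave 3 to 5 called genes in CSF3R-first against CSF3R-only; the 5 came without CSF3R-only replicate A, where Fcer1a (-1.01) and Cma1 (-1.001) passed the fold threshold. It gave 5 to 6 in CEBPA-first against CSF3R-only and 3 to 4 between the orders. The values that changed sign lay near 0. For Cpa3 between the orders they were -0.0044 with upper-quartile factors, -0.021 with at least 10 counts in every sample, -0.028 with only the compared groups and -0.0062 with the replicate block, and -0.053 to 0.10 with 1 sample left out. For Prss34, CEBPA-first against CSF3R-only gave 0.019 with library size alone. With 1 sample left out, Gzmb gave -0.0070 to 0.44 in CEBPA-first against CSF3R-only and Tpsb2 -0.84 to 0.10 between the orders. The cause of these changes was not tested. Mcpt8 between the orders passed the fold threshold under some settings, with -1.06 to -0.91 over samples left out. Passes by adjusted p alone were lost for Cma1 (adjusted p up to 0.136), Gzmb (up to 0.134) and Prss34 (up to 0.0589) in CSF3R-first against CSF3R-only, and for Prss34 (up to 0.130), Gzmb and Ms4a2 (both up to 0.0526) between the orders. The filter of at least 10 counts in every sample removed Mcpt4.

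The replicate block changed no call, with 6, 3 and 3 genes called in the 3 comparisons. Whether the letters pair samples is not given. Of 10 same-letter pairs 7 correlated over 0.1 (r -0.11 to 0.36), all 3 A pairs among them, against 5 of 30 different-letter pairs, and 6 of 11 samples correlated best with their own letter. Pairing was taken to need every same-letter pair over 0.1, so the fit without the block was kept. Scaling by library size alone moved the median of all genes by 0.13 in CEBPA-first against CSF3R-only and the share of lower calls from 70.1% to 59.8% there and from 68.0% to 59.7% in CSF3R-first against CSF3R-only. Counts of 4 to 9 limit Mcpt4 in CEBPA-first.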
